A study of Mus musculus with 12 samples.

Results

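Of 55291 genes counted in MC3T3-E1 cells, 8 stood high in undifferentiated cells and at least 3-fold lower in each library of differentiating cells, with and without interferon beta. They were Slc26a7, Atp1b1, Ptn, Gm7361, Sort1, Sp8, Sfrp2 and Flrt3. They were chosen on CPM, the count of a gene scaled by the total count of its library. The lowest of the 4 day 0 values had to be at least 5 CPM and at least 3 times the highest of the 8 values at days 14 and 21. The 5 CPM minimum alone was met by 10067 genes, and both conditions by 8 genes, or 0.0145% of the table. Because day 0 against days 14 and 21 chose these genes, their fall from day 0 is given below as a description, without a test. No library came from cells kept to day 14 or 21 without induction. Differentiation and time in culture therefore cannot be told apart.

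MC3T3-E1 is an established line of mouse preosteoblasts from calvarial bone, labelled wild type in all 12 libraries. RNA was sequenced on days 0, 14 and 21 from a control arm and from an arm given mouse interferon beta (IFN), each group having 2 libraries. Cells at confluence for 2 days counted as day 0, and both arms were then induced toward bone, the IFN arm with 50 mg/L of IFN since differentiation began. The study asked how type I interferon signalling acts on osteoblast differentiation. Whether day 0 cells of the IFN arm had already met IFN is not stated in the labels. Irf7, a gene that interferon induces, stood at 4.46 ± 1.81 CPM there against 2.82 ± 0.0982 CPM in control (mean ± SD, n = 2, as for each mean below), and at 757 ± 15.6 CPM with IFN at day 14. Over 30 interferon-stimulated genes, the median log2 fold change of the IFN arm against control was 0.494 at day 0 and 4.76 at day 14. The labels do not say whether the 2 libraries of a group came from separate cultures, so p-values measure only the spread between these libraries, which may be technical. The spread of a gene was estimated over all 12 libraries together, so each p-value also depends on groups outside its comparison.

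Preosteoblasts leave proliferation, lay down a collagen matrix and later mineralise it, and their surface receptors, secreted signals and ion transporters change on the way. Wnt signals favour the osteoblast fate and are tuned outside the cell by secreted inhibitors. Type I interferons act through a shared receptor and JAK-STAT signalling to induce a large set of antiviral genes. The 8 genes belong to different classes: secreted signals (Ptn, Sfrp2), an adhesion protein (Flrt3), membrane transport (Slc26a7, Atp1b1), a sorting receptor (Sort1), a transcription factor (Sp8) and a predicted gene (Gm7361).

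Library totals ran from 29772425 to 38908453 counts. Of 14 osteoblast markers, 13 had a mean of at least 1 CPM over the libraries, and Runx2, the master regulator of the lineage, had group means of 73.9 to 111 CPM. The 6 endothelial markers summed to at most 3.29 CPM in any library. Adipocyte markers summed to 14 to 15.5 CPM at day 0 and 18.1 to 82.1 CPM later, macrophage and osteoclast markers to 232 to 342 and 63.2 to 558 CPM, and neural markers to 46.4 to 70.1 and 39.2 to 66.5 CPM. Their part in the results was not tested. In bulk RNA, fewer cells of a type and less RNA per cell cannot be told apart. A pair of control libraries stood apart. Control day 0 replicate 1 had 21510 CPM of the ribosomal RNA gene CT010467.1 against 103 to 8415 CPM in the other 11 libraries. Control day 21 replicate 2 had 20760 CPM of Hspa5, a chaperone of the endoplasmic reticulum, against 574 to 1892 CPM in the other 11 libraries. Replicates differed by a median SD of 0.24 to 0.44 on the log2 CPM scale in the control groups and of 0.08 to 0.11 in the IFN groups.

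**Figure D1:**
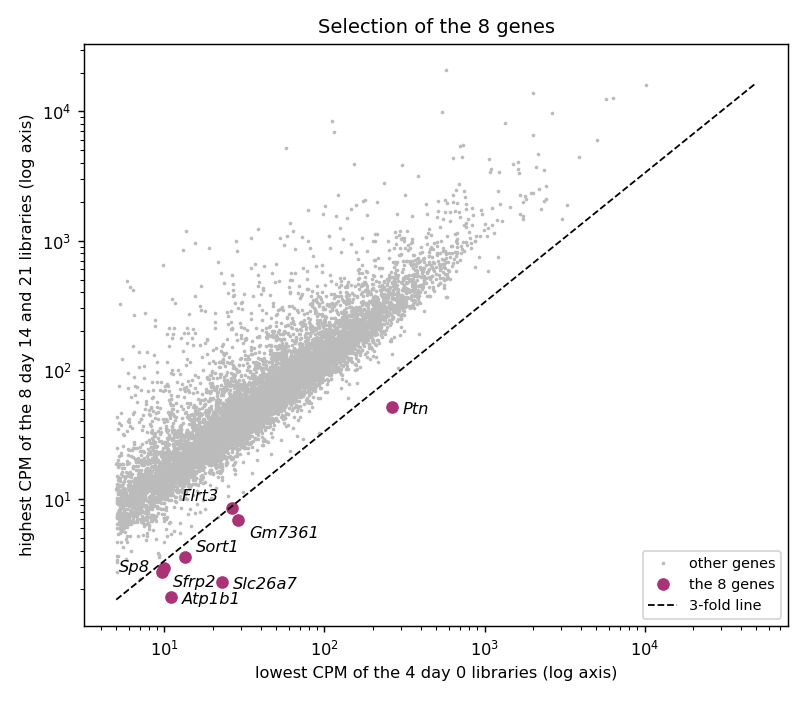
The lowest CPM of the 4 day 0 libraries (x axis, log scale) is plotted against the highest CPM of the 8 libraries of days 14 and 21 (y axis, log scale) for the 10067 genes with at least 5 CPM in each day 0 library. The 8 chosen genes lie below the dashed 3-fold line, Slc26a7 farthest from it (22.9 against 2.28 CPM) and Flrt3 nearest (26.5 against 8.53 CPM).

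The sequence before the start site was looked up as a description. That the 8 genes fell together was set by their choice, and a common control was not tested. RefSeq promoter windows of build GRCm38.p6, 250 bases before to 50 after a start site, were found for 6 of the 8 genes (8 windows). Slc26a7 and Sort1 were not matched. The CCAAT box (letters CCAAT, either strand) was in 4 of the 8 windows, which belong to 3 of the 6 genes (Atp1b1, Ptn and Sp8), and in 37.4% of all 32851 windows. The SP1 motif GGGCGG was in 2 of the 8 windows, of Atp1b1 and Sp8, and in 35.7% of all windows. In windows of Sp8 alone were TATAAA (13.6% of all), the CHR element TTTGAA (17.9%) and the TEAD motif GGAATG (14.7%, overlapping the SP1 match there by 1 base). The AP-1 motif TGANTCA (7.81% of all windows), E2F motifs TTTCCCGC or TTTGGCGC (1.56%), the E-box CACGTG (7.15%), the CRE TGACGTCA (1.79%), the CArG box (1.63%) and the interferon-stimulated response element (3.44%) were in none of the 8 windows. Both strands were searched for each, and a match describes letters, not a bound site. The stretches below lie outside the annotated gene and are written 5′ to 3′ on the gene's strand. The 3 with a CCAAT box are shown to compare its place, and Flrt3 because it is the gene with a called IFN difference below. Capitals mark CCAAT or its reverse complement, TATAAA in Sp8, and the reverse complement of GGGCGG in Atp1b1.
Atp1b1, chr1:164458356-164458505, minus strand: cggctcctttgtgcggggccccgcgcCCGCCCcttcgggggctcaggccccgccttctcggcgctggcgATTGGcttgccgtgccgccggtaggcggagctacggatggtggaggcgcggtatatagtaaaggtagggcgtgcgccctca
Ptn, chr6:36810221-36810329, minus strand: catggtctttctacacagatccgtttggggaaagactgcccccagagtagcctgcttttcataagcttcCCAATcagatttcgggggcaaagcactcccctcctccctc
Sp8, chr12:118846179-118846328, plus strand: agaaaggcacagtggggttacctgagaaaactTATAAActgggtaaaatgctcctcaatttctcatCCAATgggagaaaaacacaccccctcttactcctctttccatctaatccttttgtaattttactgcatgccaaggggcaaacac
Flrt3, chr2:140671477-140671626, minus strand: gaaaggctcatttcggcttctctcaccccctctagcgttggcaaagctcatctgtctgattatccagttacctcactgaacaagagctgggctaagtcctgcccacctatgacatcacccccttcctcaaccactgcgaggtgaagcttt
Counted from the RefSeq start site, the CCAAT letters lay at -81 to -77 in Atp1b1 and in Ptn, on opposite strands, and at -84 to -80 in this window of Sp8. A further match in the Atp1b1 window lay at 1 to 5, outside the stretch shown. The other window of Sp8 had a match at -77 to -73.

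Ptn (ENSMUSG00000029838, chr6:36714929-36810220, minus strand, mm10) was the most abundant of the 8. It encodes pleiotrophin, a secreted heparin-binding growth factor also known as osteoblast-stimulating factor. Per kilobase of exon, its mean day 0 level was 93.8 CPM per kb, ahead of Sfrp2 at 24.8, Gm7361 at 13.6, Slc26a7 at 9.68, Atp1b1 at 6.07, Flrt3 at 5.68, Sp8 at 2.66 and Sort1 at 2.25 CPM per kb. Ptn stood at 264 and 340.0 CPM in the control day 0 libraries and at 346 and 338 CPM in those of the IFN arm. In control it was at 51.6 and 42.4 CPM at day 14 and at 40.2 and 14.4 CPM at day 21. With IFN it was at 32.2 and 32.9 CPM at day 14 and at 37.6 and 44.1 CPM at day 21. The lowest value of day 21 was that of control replicate 2, the library with high Hspa5. Of its day 0 mean, Ptn kept 15.6% at day 14 and 9.04% at day 21 in control, and 9.52% and 11.9% with IFN.

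The known receptors of pleiotrophin did not share 1 course. They and the other relatives and partners named below were picked by name after the 8 genes were known, so their values are a description. Ptprz1, the receptor tyrosine phosphatase that binds pleiotrophin, had 78 and 328 counts in the control day 0 libraries, 271 and 334 in the IFN ones, and 0 to 12 counts in each later library. It missed the list only through the 5 CPM minimum: its lowest day 0 value was 2.45 CPM, in control day 0 replicate 1. Sdc3, the heparan sulphate proteoglycan syndecan 3, ranged from 163 to 248 CPM at day 0 and from 26.4 to 559 CPM later, so the ranges overlapped. Alk, a receptor kinase, was at 0.788 to 1.62 CPM at day 0 and at 0.316 to 0.983 CPM later. Mdk, midkine, the other member of the growth factor family, was at 0.578 CPM or less in each library.

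Sfrp2 (ENSMUSG00000027996, chr3:83766321-83774316, plus strand) encodes a secreted protein with a frizzled-like domain that binds Wnt ligands. It had the widest spread at day 0, with 9.92 CPM in control replicate 1 and 68.9 CPM in replicate 2, against 64.7 and 70.3 CPM in the IFN arm. It stood at 0.744 and 2.90 CPM at day 14 and 0.412 and 0.808 CPM at day 21 in control, and at 0.310 and 0.941 CPM and 1.27 and 1.35 CPM with IFN. The 3 higher day 0 libraries differed by at most 1.09-fold and lay on average 6.85-fold above the remaining one. The late libraries held only 11 to 93 counts of Sfrp2. The day 0 mean was 21.6-fold the day 14 mean and 64.6-fold the day 21 mean in control, and 108-fold and 51.5-fold with IFN. Other secreted frizzled-related genes were rare: Sfrp1, Sfrp4 and Sfrp5 never exceeded 0.202 CPM, while Frzb, also a secreted Wnt antagonist, ranged from 4.18 to 7.71 CPM at day 0 and from 1.23 to 2.99 CPM later.

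Among 32 genes of the Wnt pathway, 26 besides Sfrp2 were tested for the change from day 0 (edgeR quasi-likelihood test, adjusted p below 0.05, here termed called). In control at day 14, 3 rose (1.55% of all genes rose) and 0 fell (0.827% of all genes fell). The 3 were Wif1, a secreted Wnt inhibitor, Lrp5, a Wnt co-receptor, and Axin2, a feedback target of Wnt signalling. With IFN at day 14, 2 rose, Wif1 and the R-spondin receptor Lgr6 (5.18% of all genes), and 9 fell (5.56%). Those that fell included the receptors Fzd1 (log2 fold change -1.70 ± 0.271 SE, adjusted p = 0.00363), Fzd4 (-1.58 ± 0.219, adjusted p = 0.00161) and the Wnt agonist Rspo2 (-3.74 ± 0.656, adjusted p = 0.00561), of which Fzd1 and Rspo2 were picked after values were seen. At day 21, 6 rose and 3 fell in control (3.82% and 2.63% of all genes), the latter being Dkk3, Fzd4 and Rspo2, and 2 rose and 6 fell with IFN (5.88% and 4.31%). Wif1 ran opposite to Sfrp2: it had 4 counts over both control day 0 libraries and 0 over the IFN ones, and 706 and 374 counts at days 14 and 21 in control and 167 and 524 with IFN. Axin2 and Lrp5 were also lower with IFN than in control at day 14, by log2 fold changes of -1.80 ± 0.334 (edgeR, adjusted p = 0.0199) and -1.32 ± 0.195 (adjusted p = 0.00514).

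Of 34 growth factors and cytokines, 30 besides Ptn were tested against day 0. Day 14 in control had 1 higher and 2 lower, and day 21 had 5 higher and 1 lower. Day 14 with IFN had 2 higher and 5 lower, and day 21 had 7 higher and 4 lower. The shares of all genes are those given for the Wnt list. The 2 lower ones in control at day 14 were Hgf and Nrg1, to which the IFN arm added Bdnf, Igf1 and Tgfb2. Hgf, hepatocyte growth factor, fell in each of the 4 contrasts: it went from 21.4 ± 6.70 CPM at day 0 to 4.50 ± 1.15 and 4.25 ± 3.47 CPM in control, and from 26.2 ± 1.23 to 3.67 ± 0.125 and 7.10 ± 1.24 CPM with IFN. Fgf2, a fibroblast growth factor, rose in each, by log2 fold changes of 1.34 ± 0.247 and 1.98 ± 0.250 in control and 2.20 ± 0.252 and 2.80 ± 0.257 with IFN (edgeR, highest adjusted p = 0.0212). Nrg1, a ligand of ErbB receptors, had log2 fold changes of -2.31 ± 0.291 and -0.98 ± 0.279 in control and -2.24 ± 0.291 and -2.11 ± 0.290 with IFN, and missed the threshold only in control at day 21 (adjusted p = 0.0624).

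**Figure D2:**
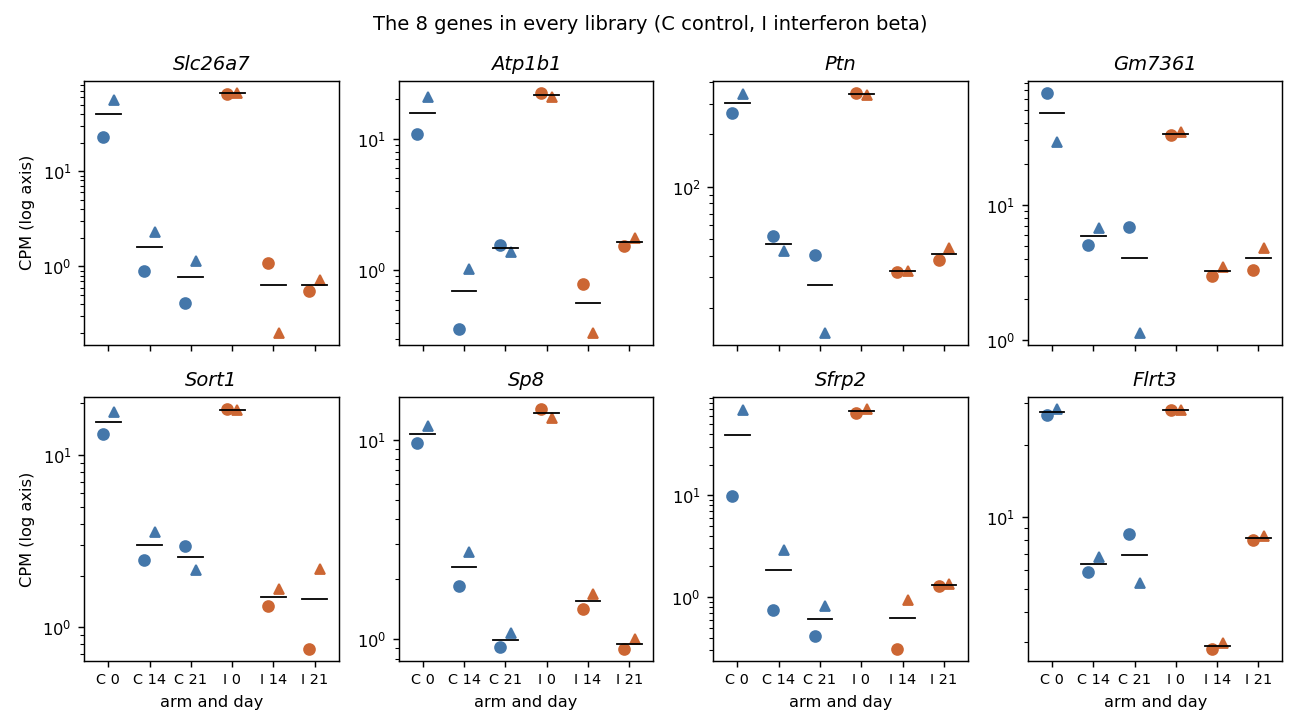
CPM (y axis, log scale) of the 8 genes in the 12 libraries by arm and day (x axis; C control, I IFN; circles replicate 1, triangles replicate 2, bars the mean of 2). Day 0 lies above each later library in each gene; control day 0 replicate 1 is the lowest day 0 library in all but Gm7361, and Sfrp2 there is at 9.92 CPM.

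Flrt3 (ENSMUSG00000051379, chr2:140650914-140671469, minus strand) encodes a leucine-rich repeat transmembrane protein of cell adhesion that binds UNC5 receptors and latrophilins. Its day 0 values were the tightest of the 8, at 26.5 and 28.2 CPM in control and 27.9 and 28.0 CPM in the IFN arm. In control it stood at 5.92 and 6.78 CPM at day 14 and at 8.53 and 5.30 CPM at day 21. With IFN it stood at 2.82 and 2.99 CPM at day 14 and at 8.0 and 8.32 CPM at day 21. Both IFN day 14 libraries were thus below each of the other 6 late libraries, and both IFN day 21 libraries lay within the range of control day 21. Flrt3 kept 23.2% and 25.3% of its day 0 mean at days 14 and 21 in control, and 10.4% and 29.2% with IFN.

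Flrt2, the close relative of Flrt3, was also lower at days 14 and 21 (17.0 to 35.6 CPM) than at day 0 (63.6 to 97.6 CPM), with no overlap. Per kilobase it stood at 11.3 CPM per kb at day 0, against 5.68 for Flrt3. Its late group means had the same order as those of Flrt3: control had 27.3 ± 0.0150 CPM at day 14 and 28.9 ± 1.26 CPM at day 21, and the IFN arm 18.3 ± 1.83 and 33.5 ± 2.90 CPM. Flrt1 did not exceed 1.32 CPM. The partners moved in unlike directions. Unc5b, a netrin receptor that FLRT proteins bind, was at 18.0 to 20.8 CPM at day 0 and 61.2 to 163 CPM later. The latrophilin Adgrl1 was at 55.0 to 69.4 CPM at day 0 and at 12.6 to 41.8 CPM later, without overlap. Adgrl2, also a latrophilin, was at 218 to 444 CPM at day 0 and at 59.0 to 286 CPM later, and its ranges overlapped.

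Of 32 axon guidance genes, the class of cues and receptors to which UNC5 proteins belong, 26 were tested against day 0, and the background shares over all genes are the ones printed with the Wnt list. Control had 3 higher (Draxin, Nrp1, Unc5b) and 3 lower (Efna5, Sema3c, Slit2) on day 14, and 3 higher (Ephb2, Sema7a, Unc5b) and 3 lower (Efna5, Sema5a, Slit2) on day 21. The IFN arm had 1 higher (Unc5b) and 8 lower on day 14, then 2 higher (Sema7a, Unc5b) and 6 lower on day 21. Efna5, an ephrin ligand, fell in each of the 4 contrasts, with log2 fold changes of -1.72 ± 0.203 and -2.23 ± 0.208 in control and -2.37 ± 0.208 and -2.27 ± 0.207 with IFN. Slit2, a secreted repellent, went from 336 ± 104 CPM to 71.2 ± 26.7 and 102 ± 39.4 CPM in control and from 436 ± 5.51 to 85.6 ± 0.751 and 129 ± 3.75 CPM with IFN, and was called in each (edgeR, highest adjusted p = 0.0105). Unc5b rose in each, by 1.76 ± 0.384 to 2.87 ± 0.399 on the log2 scale.

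Slc26a7 (ENSMUSG00000040569, chr4:14502430-14621805, minus strand) had the largest gap between day 0 and the later libraries, 10.1-fold between the lowest and the highest value. It encodes an anion transporter of the SLC26 family. It stood at 22.9 and 55.9 CPM in the control day 0 libraries and at 65.2 and 66.2 CPM in those of the IFN arm. At day 14 it was at 0.892 and 2.28 CPM in control and at 1.07 and 0.202 CPM with IFN. At day 21 it was at 0.412 and 1.14 CPM in control and at 0.549 and 0.717 CPM with IFN. The late values rest on 6 to 73 counts a library, and the arms overlapped at both days. Its day 0 mean was 24.9-fold and 50.9-fold the means of days 14 and 21 in control and 103-fold and 104-fold with IFN. Among its relatives, the sulphate transporter Slc26a2 was at 78.7 to 192 CPM at day 0 and 44.3 to 101 CPM later, and Slc26a11 at 12.9 to 20.8 CPM and 15.4 to 26.3 CPM, so in both the ranges overlapped. Per kilobase, Slc26a7 stood close below Slc26a2 at day 0 (9.68 against 12.9 CPM per kb) and far below it later (0.167 against 4.98 CPM per kb).

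Atp1b1 (ENSMUSG00000026576, chr1:164437109-164458355, minus strand) encodes a beta subunit of the sodium-potassium ATPase, a glycoprotein needed to bring the pump to the cell membrane. It stood at 10.9 and 20.6 CPM in control and 22.3 and 20.9 CPM in the IFN arm at day 0. At day 14 it was at 0.357 and 1.03 CPM in control and 0.790 and 0.336 CPM with IFN. At day 21 it was at 1.56 and 1.38 CPM in control and 1.53 and 1.75 CPM with IFN. In both arms each day 21 library lay above each day 14 library, and the late values rest on 10 to 61 counts. Atp1b3, the other beta subunit found in these cells, was at 112 to 131 CPM at day 0 and 73.7 to 127 CPM later, so the ranges overlapped. Per kilobase, the day 0 level of Atp1b1 was 6.07 CPM per kb against 49.2 for Atp1b3. Atp1b2 and Atp1b4 did not exceed 0.509 CPM.

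**Figure D3:**
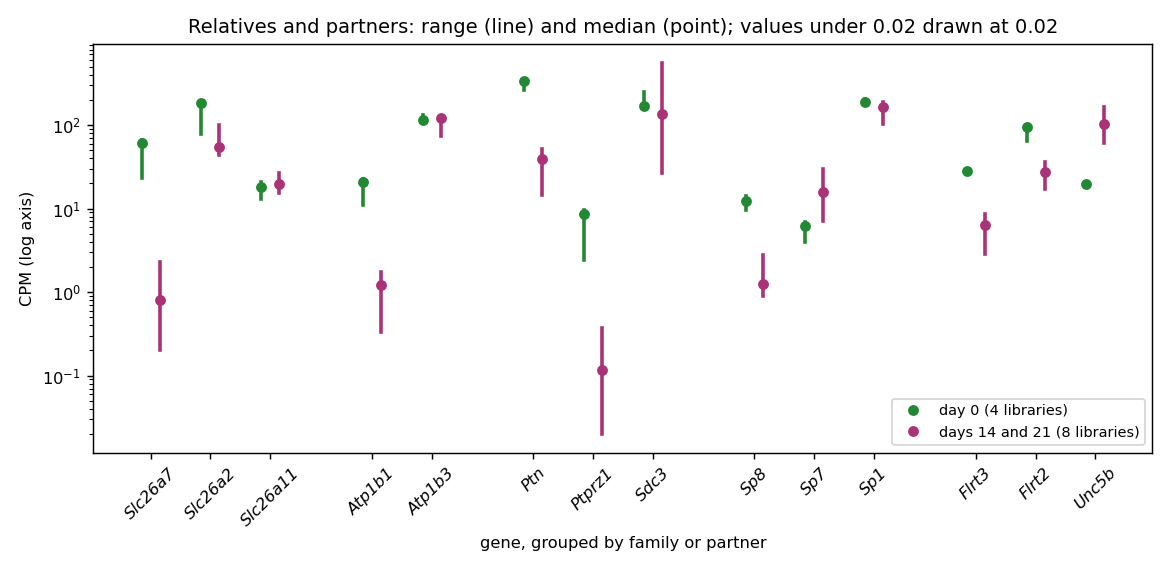
CPM (y axis, log scale) of 5 of the 8 genes, each followed by 1 or 2 relatives or partners (x axis), as the range (line) and median (point) of the 4 day 0 libraries (green) and the 8 libraries of days 14 and 21 (purple); values under 0.02 are drawn at 0.02. Ptprz1 and Flrt2 show no overlap and are lower later, Sp7 and Unc5b are higher later without overlap, and the other 5 overlap.

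Sort1 (ENSMUSG00000068747, chr3:108284082-108361511, plus strand) encodes sortilin, a VPS10 domain receptor that sorts cargo between the Golgi, the cell surface and endosomes. Its day 0 values were 13.4 and 17.9 CPM in control and 18.6 and 18.2 CPM in the IFN arm. In control it was at 2.47 and 3.56 CPM at day 14 and 2.97 and 2.15 CPM at day 21. With IFN it was at 1.33 and 1.68 CPM at day 14 and 0.751 and 2.18 CPM at day 21. The arms did not overlap at day 14 and overlapped at day 21 through IFN replicate 2 alone. These late values rest on 26 to 114 counts a library. Of its relatives, Sorcs2 was at 3.64 to 5.82 CPM at day 0 and 0.988 to 6.47 CPM later, and Sorl1, Sorcs1 and Sorcs3 did not exceed 0.665 CPM.

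Sp8 (ENSMUSG00000048562, chr12:118846329-118852576, plus strand) encodes a zinc finger transcription factor of the Sp family that is known from limb and brain development. It had 9.64 and 11.7 CPM in control and 14.2 and 12.8 CPM in the IFN arm at day 0. At day 14 it was at 1.84 and 2.75 CPM in control and 1.41 and 1.68 CPM with IFN, and at day 21 at 0.912 and 1.08 CPM and 0.896 and 1.0 CPM. In both arms, both day 21 libraries lay below both day 14 libraries, on 31 to 88 counts a library. Its relative Sp7, also called osterix and needed for osteoblast differentiation, ran the other way, from 3.99 to 6.81 CPM at day 0 to 7.15 to 29.4 CPM later. Sp1 (181 to 203 CPM at day 0, 103 to 190 later) and Sp3 (116 to 134, then 102 to 138) overlapped, and Sp5 and Sp6 had 0 counts in each library.

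Gm7361 (ENSMUSG00000059645, chr5:26257691-26264308, plus strand) is a predicted protein-coding gene without a given name, and reads that it shares with similar copies could have been divided between them, so its values are uncertain. It was at 66.9 and 28.9 CPM in control and 32.8 and 34.2 CPM in the IFN arm at day 0. At day 14 it was at 5.09 and 6.78 CPM in control and 2.99 and 3.49 CPM with IFN, and at day 21 at 6.91 and 1.14 CPM and 3.29 and 4.82 CPM. It was the only gene of the 8 with its highest day 0 value in control replicate 1.

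**Figure D4:**
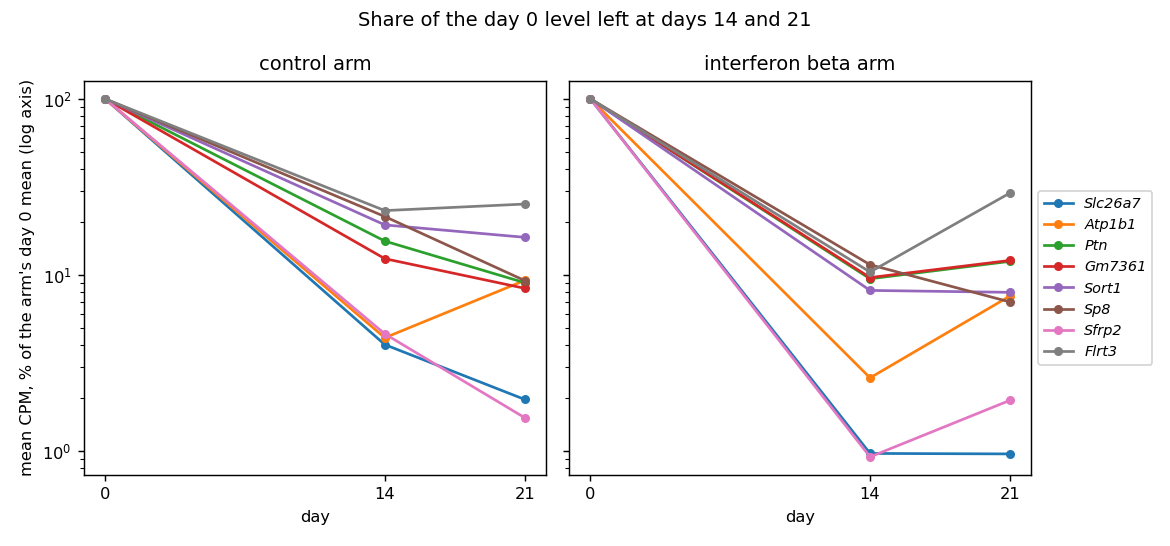
Mean CPM as a percentage of the arm's own day 0 mean (y axis, log scale) against day (x axis) in control (left) and with IFN (right), each point the mean of 2 libraries. Slc26a7 and Sfrp2 end lowest in both arms, at 1.97% and 1.55% in control and 0.964% and 1.94% with IFN, and Flrt3 ends highest, at 25.3% and 29.2%.

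Over the 8 genes the fold from day 0 to day 14 ran from 4.31 to 24.9 in control (median 7.25) and from 8.74 to 108 with IFN (median 11.4). From day 0 to day 21 it ran from 3.95 to 64.6 in control (median 10.9) and from 3.42 to 104 with IFN (median 12.9). The fold was larger in the IFN arm for 8 of 8 genes at day 14 and for 4 of 8 at day 21 (Atp1b1, Slc26a7, Sort1 and Sp8). These counts rest on values that the rule used, and no share of all genes is given. At day 0, 7 of the 8 were higher in the IFN arm, which by itself enlarges the fold there. The control folds depend on control day 0 replicate 1, which held the lowest day 0 value of 7 of the 8 genes. The mean of the other 3 day 0 libraries was 1.06-fold (Flrt3) to 6.85-fold (Sfrp2) its value in those 7, and 0.478-fold in Gm7361, while those 3 lay within 1.01-fold to 1.21-fold of each other.

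The values nearest the 3-fold threshold were those of Sort1 (13.4 against 3.56 CPM, a ratio of 3.76), Sp8 (3.51), Sfrp2 (9.92 against 2.90 CPM, 3.42) and Flrt3 (3.11) inside it. Just outside lay Glt8d2 (21.6 against 7.32 CPM, 2.95), Galnt18 (7.03 against 2.41 CPM, 2.92), Mmp16 (92.5 against 32.3 CPM, 2.86) and Cbr2 (287 against 102 CPM, 2.80). Without control day 0 replicate 1 the rule took 52 genes, the 8 among them. Applied within an arm, which was added after the data were seen, it took 11 genes in control and 174 with IFN. The 9 genes in both lists, 81.8% of the first and 5.17% of the other, were the 8 and Galnt18.

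The choice did not compare IFN with control at the same day, so this contrast was tested. Its values did enter the choice, which set a minimum at day 0 and capped each later value in both arms. At day 14, 1 of the 8 genes was called, lower with IFN, where 0.995% of all 17289 genes tested were called lower and 2.29% in either direction. It was Flrt3, at 2.91 ± 0.118 CPM with IFN against 6.35 ± 0.606 CPM in control (log2 fold change -1.17 ± 0.213 SE, edgeR, adjusted p = 0.0191). The other 7 were also lower in the mean but not called. Their log2 fold changes were -1.59 ± 0.944 in Sfrp2, -1.30 ± 0.747 in Slc26a7, -1.04 ± 0.430 in Sort1, -0.91 ± 0.590 in Gm7361, -0.61 ± 0.315 in Sp8, -0.58 ± 0.309 in Ptn and -0.30 ± 0.541 in Atp1b1 (adjusted p from 0.308 to 0.869). The median over the 8 was -0.97 against -0.0075 over all genes tested, of which 50.6% were below 0, and it was -0.63 without control day 14 replicate 2. Without a filter on low counts, Sfrp2 (-1.59, adjusted p = 0.000788) and Slc26a7 (-1.30, adjusted p = 0.0136) were called too. Both IFN libraries lay below both control libraries for 5 of the 8 (Flrt3, Gm7361, Ptn, Sort1 and Sp8), as they did for 24.4% of all genes, and above them for 0 (31.0% of all genes). The Flrt3 call was made in 13 of 21 alternative fits, with adjusted p from 1.85e-05 to 0.235. It was lost without either library of control day 14 (adjusted p = 0.0761 without replicate 1 and 0.0592 without replicate 2), IFN day 0 (0.0642 and 0.0571) or IFN day 14 (0.235 and 0.209), with the log2 fold change between -1.23 and -1.11 in each fit without a library.

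**Figure D5:**
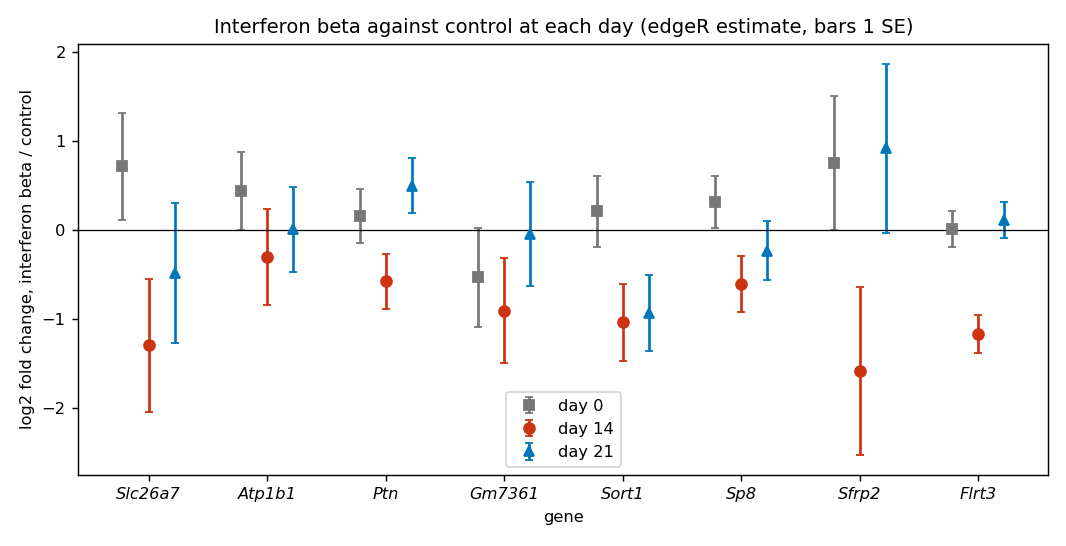
Log2 fold change of IFN against control (y axis) for each of the 8 genes (x axis) at day 0 (squares), day 14 (circles) and day 21 (triangles), edgeR estimates with bars of 1 SE. All 8 day 14 values lie below 0, from -1.59 in Sfrp2 to -0.30 in Atp1b1, and Flrt3 at day 14 is the only called value.

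At day 0 and day 21 the 8 genes showed no called difference between the arms. At day 0, 0 of 8 were called (0.00578% of all genes), the lowest adjusted p was 0.997 in edgeR, and 0 had an unadjusted p below 0.05. In the mean 7 were higher in the IFN arm, where 49.0% of all genes were lower. The median log2 fold change was 0.26 against 0.0048 over all genes (0.038 without control day 0 replicate 1 and 0.45 without replicate 2). Both IFN libraries lay above both control libraries for 4 of the 8, Atp1b1, Slc26a7, Sort1 and Sp8 (20.7% of all genes), and below them for 0 (15.8%). For 7 of the 8 the lowest value was that of control replicate 1. At day 21, 0 of 8 were called (0.995% of all genes), 0 had an unadjusted p below 0.05, and 4 were higher and 4 lower. The arms did not overlap for 1 gene with IFN higher, Sfrp2 (26.3% of all genes), and for 0 with IFN lower (13.6%). Flrt3 then differed by 0.11 ± 0.205 (adjusted p = 0.862), Ptn by 0.49 ± 0.309 (adjusted p = 0.529) and Sort1 by -0.94 ± 0.430 (adjusted p = 0.387). DESeq2 likewise called 0 of the 8 at day 0 and at day 21. Without control day 21 replicate 1, which leaves the library with high Hspa5 as the control of that day, Ptn was called higher with IFN (1.21, adjusted p = 0.00352). Without replicate 2, the library with high Hspa5, Ptn differed by 0.0202 (adjusted p = 0.985).

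Day 21 against day 14 within an arm was likewise not compared by the choice, which capped the values of both days. In control, 0 of the 8 were called (0.0289% of all genes). The share of all genes with an unadjusted p below 0.05 is not given for any contrast. Counts at that threshold are therefore no result about the 8 genes. In control, 3 had an unadjusted p below 0.05. These were Sp8, with a log2 fold change of -1.03 ± 0.322 (adjusted p = 0.180), Atp1b1, with 1.25 ± 0.509 (adjusted p = 0.246), and Ptn, with -0.70 ± 0.310 (adjusted p = 0.273). The 8 had 2 values above 0 and 6 below, where 49.8% of all genes were below. Their median was -0.60, which moved to -0.11 when replicate 2 of control day 14 was left out, and to -0.13 for replicate 2 of control day 21. With day 21 higher, the days did not overlap for 1 gene, Atp1b1 (13.1% of all genes), and with day 21 lower for 2, Ptn and Sp8 (23.1%). DESeq2 called 0 of the 8 as well, and edgeR without a filter on low counts called Sfrp2 (-1.40, adjusted p = 0.0056). With control day 21 replicate 1 left out, so that the library with high Hspa5 stood alone for that group, Ptn (-1.43, adjusted p = 0.00116) and Gm7361 (-2.09, adjusted p = 0.0169) were called. With that high Hspa5 library left out instead, Ptn was at -0.24 (adjusted p = 0.686) and Gm7361 at 0.22 (adjusted p = 0.886).

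With IFN, 0 of the 8 genes were called between day 14 and day 21, as were 0 of all 17289 genes in edgeR. That fit used a shared estimate of spread per gene for both arms. Estimated apart, the coefficient of variation between replicates was 0.392 in control and 0.0639 with IFN. The 0 calls therefore do not show that nothing changed in the IFN arm. An unadjusted p below 0.05 was found for 2 of the 8, again without a share of all genes to set beside it. Flrt3 went from 2.91 ± 0.118 to 8.16 ± 0.222 CPM, a log2 fold change of 1.53 ± 0.213 (edgeR, adjusted p = 0.154), and Atp1b1 from 0.563 ± 0.321 to 1.64 ± 0.154 CPM, 1.56 ± 0.515 (adjusted p = 0.642). Flrt3 was called in 7 of 21 alternative fits, with adjusted p from 1.6e-07 to 1.0. Among the 7 were DESeq2 (1.6e-07), the fit to the 2 groups alone (3.86e-06) and those without control day 21 replicate 1 (0.00721) or replicate 2 (0.00777). Both day 21 libraries lay above both day 14 libraries for 4 of the 8, Atp1b1, Flrt3, Ptn and Sfrp2 (26.8% of all genes), and below them for 1, Sp8 (34.1%). The median was 0.37 against 0.0021 over all genes, and it was 0.15 without IFN day 21 replicate 2 and 0.62 without IFN day 21 replicate 1.

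The change from day 14 to day 21 was then compared between the arms. In edgeR, 0 of the 8 genes and 0 of all genes were called, and 2 of the 8 had an unadjusted p below 0.05 (share of all genes not given). All 8 differences, IFN arm minus control arm, were above 0, where 48.4% of all genes were below 0. Their median was 0.84 (0.41 without control day 14 replicate 2) against 0.0237 over all genes. With 1 library left out, the sign was not stable in Atp1b1 (-0.569 to 1.1) and Sort1 (-0.85 to 0.71). This comparison uses the same libraries as IFN against control at days 14 and 21 and is not separate evidence. It was 1.28 ± 0.295 in Flrt3 (adjusted p = 0.652), 1.07 ± 0.437 in Ptn (adjusted p = 0.652) and 2.51 ± 1.34 in Sfrp2 (adjusted p = 0.659). Flrt3 was called by DESeq2 (adjusted p = 0.0293) and without control day 21 replicate 1 (1.51, adjusted p = 0.00549). That fit, in which the library with high Hspa5 again stood alone, also called Ptn (1.81, adjusted p = 0.00262) and Gm7361 (2.47, adjusted p = 0.0318). Without control day 21 replicate 2 the differences were 1.11 in Flrt3 (adjusted p = 0.422), 0.61 in Ptn (adjusted p = 0.637) and 0.15 in Gm7361 (adjusted p = 0.969). Sfrp2 was called without a filter on low counts (2.53, edgeR, adjusted p = 0.000307).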

How the data were processed

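Counts of 12 MC3T3-E1 libraries were used as deposited: raw whole-number counts of reads per gene, made with HISAT2 on mm10, SAMtools and featureCounts, per the submitters' processing notes. Versions, annotation and strand setting are not given in the sources used here, so overlapping and antisense genes and close copies are uncertain. The 37 mitochondrial symbols all had 0 counts. Gene positions are from GENCODE M21 (53292 symbols matched) and promoters from RefSeq, GRCm38.p6. Levels are CPM of library totals.

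Counts were tested in R 4.3.3 with edgeR 4.0.16: filterByExpr (17289 genes), TMM, 1 mean per group over 6 groups of 2, robust quasi-likelihood F tests and Benjamini-Hochberg adjustment over all genes tested, with 0.05 as threshold. The test was tried first on simulated data with the same spread per gene in both arms. The arms differ in spread here, so that trial does not show how the test performs on these data. The arms were compared on each day, and the step from day 14 to day 21 was tested per arm and between arms; the contrasts with day 0 chose the 8 genes and are read only for other genes. Depth limits the late values of Slc26a7, Atp1b1 and Sfrp2. It also limits those of Sp8, at 31 to 88 counts a library, and of Sort1, at 26 to 114.

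The 8 genes, the pathway lists (Wnt, growth factor and cytokine, axon guidance) and the marker lists were chosen with earlier results of these data known. Named were all 8 genes (the predicted Gm7361 included, so that each is accounted for), those nearest the threshold and, per list, the 4 other genes with the smallest adjusted p at day 14 against day 0 in control. Genes picked otherwise are said to be so: relatives and partners were picked after the 8 were known (values of some of them are not reported here), and Irf7, CT010467.1, Hspa5 and the called list genes that this rule does not take after values were seen. The 2 libraries of no group agreed within sampling noise. Alternatives were scaling by RLE or by library size alone, DESeq2 1.42.0, no filter or a filter of 1 CPM in at least 2 libraries, fits to only the groups compared, a replicate block, limma 3.58.1 voom with library weights, each library left out, and both control libraries that stand apart left out.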

Additional observations from a re-analysis of the deposited data

How the results depend on the processing

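Against 8 genes in the main choice, a 2-fold threshold took 35 genes, a 4-fold threshold 4, a minimum of 1 CPM 14, leaving out both control libraries that stand apart 59, and the IFN arm alone 174. Leaving out 1 library took 8 to 52.

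Of the 8 genes, the number called for IFN against control at day 14 was 1, and 0 with library size alone, 3 without a filter, 0 with only the groups compared, and 3 without both outlying control libraries (Flrt3, Gm7361, Ptn). For day 21 against day 14 in control it was 0, and 1 without a filter, and the median of -0.60 became -0.13 without both outlying controls. With IFN it was 0, and 1 in DESeq2, 2 without a filter, 3 with only the groups compared, 1 without both outlying controls and 3 with voom. For the difference between arms it was 0, and 1 in DESeq2 and 1 without a filter. Leaving out 1 library gave 0 to 0 calls for IFN at day 0, 0 to 1 at day 14, 0 to 1 at day 21, 0 to 2 and 0 to 1 for day 21 against day 14 in control and with IFN, and 0 to 3 for the difference. The medians then ran from 0.038 to 0.45, -1.14 to -0.63, -0.21 to 0.14, -0.62 to -0.11, 0.15 to 0.62 and 0.41 to 1.09 in that order. The share of all genes called in each alternative setting is not given here, so these counts are no result about the 8 genes.

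Genes of the 18 pathway lists called at day 14 against day 0 numbered 36 in control, and 114 in DESeq2, 196 without a filter, 14 with only the groups compared and 133 without both outlying controls, with 18 to 134 when 1 library was left out. With IFN they numbered 142, and 231 without a filter, 388 with only the groups compared, 263 without both outlying controls and 326 with voom (65 to 214). At day 21 they numbered 78 in control, and 142 in DESeq2, 211 without a filter, 7 with only the groups compared, 149 without both outlying controls and 24 with voom (45 to 221), and with IFN 142, and 339, 250 and 302 in the last 3 settings (58 to 207). The lists hold Ptn and Sfrp2, which were chosen on the same contrasts; leaving both out, the counts with all libraries were 34 (day 14) and 76 (day 21) in control, and 140 on either day with IFN. The cause of these differences between settings was not tested. The 18 lists hold 487 genes, and the share of all genes called in each alternative setting is not given here. In the main fit, 30 interferon-stimulated genes were tested against day 0. The IFN arm had 29 higher and 1 lower at day 14 (5.18% and 5.56% of all genes), and 29 higher and 0 lower at day 21 (5.88% and 4.31%). Control had 0 higher and 0 lower at day 14 (1.55% and 0.827%), and 12 higher and 1 lower at day 21 (3.82% and 2.63%).

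Some uncalled values changed sign. Without both outlying controls these were IFN at day 0 in Ptn (-0.0121), Gm7361 (0.195), Sfrp2 (-0.0497) and Flrt3 (-0.0322), IFN at day 21 in Slc26a7 (0.61), Sp8 (0.0542) and Flrt3 (-0.0686), and day 21 against day 14 in control in Gm7361 (0.22). IFN at day 21 in Atp1b1 was -0.0131 with RLE, -0.0133 in DESeq2 and -0.0175 with the 1 CPM filter, and in Gm7361 0.0105 with library size alone and 0.22 with voom. Day 21 against day 14 with IFN in Slc26a7 was 0.00562 with RLE, 0.0348 in DESeq2, 0.000668 with the 1 CPM filter, 0.00243 with only the groups compared and 0.36 with voom, and in Sort1 -0.0331 with library size alone and -0.17 with voom. The difference between arms in Sort1 was -0.10 with voom.

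Replicate numbers were checked as a possible pairing. Deviations of same-numbered libraries correlated at 0.0801 to 0.11 between control groups and at -0.0511 to 0.0206 between all other pairs of groups. The replicate block was the same in both arms, so pairing in the control arm alone was not tested. With a replicate block, Flrt3 at day 14 was -1.17 (adjusted p = 0.0319), and no call on the 8 genes changed. The block turned the sign of uncalled values in Gm7361 (IFN at day 21, 0.0867) and Sort1 (day 21 against day 14 with IFN, -0.0499, and the difference between arms, -0.00103).

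Leaving out 1 library changed the sign of 16 values that were not called with all libraries. For IFN at day 0 they ran from -0.0056 to 0.355 in Ptn, -1.02 to 0.201 in Gm7361, -0.0436 to 2.75 in Sfrp2 and -0.0259 to 0.0572 in Flrt3. At day 14 Atp1b1 ran from -1.08 to 0.588. At day 21 the ranges were -1.14 to 0.612 in Slc26a7, -0.0967 to 0.123 in Atp1b1, -0.772 to 1.54 in Gm7361, -0.477 to 0.0539 in Sp8 and -0.0689 to 0.326 in Flrt3. For day 21 against day 14 they were -2.09 to 0.216 in Gm7361 and -0.302 to 0.139 in Sort1 in control, and -0.709 to 1.69 in Slc26a7 and -0.958 to 0.602 in Sort1 with IFN. For the difference between arms they were -0.569 to 1.1 in Atp1b1 and -0.85 to 0.71 in Sort1.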
